A study of Saccharomyces cerevisiae with 14 samples.

Results

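Top1 relaxes the supercoils that transcription leaves in DNA, and RNase H digests the RNA strand of a DNA-RNA hybrid. Both are known to limit R-loops, structures in which a new transcript stays paired with its template, and highly transcribed genes such as those for ribosomal proteins and tRNAs are common sites of them in yeast. Rad52 is the recombination protein that gathers at broken DNA, so its chromatin immunoprecipitation followed by sequencing is used in the series as a readout of damage. The comparison described here asked where Rad52 peaks lay when Top1 was depleted from budding yeast that already lacked RNase H.

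It rests on 4 of the 14 libraries of the series, chosen by their titles. The 2 h1D-h2D libraries come from a strain without an AID tag, read as lacking RNH1 and RNH201, the RNase H genes that the series design names. The 2 h1D-h2D Top1-AID libraries come from the same kind of strain with Top1 fused to an auxin-inducible degron, a tag that directs a protein to degradation when auxin is given. Both groups are labelled as strain 288C, were grown in YEPD, received 0.5 µM auxin for 4 h and were fixed in paraformaldehyde, so auxin itself is common to both. The labels do not say that replicates were separate cultures, so p-values measure only the spread between these libraries, which may be technical. They also give no measurement of how much Top1 was left. The other auxin-treated libraries are used for orientation, namely WT with 2 libraries, Top1-AID with RNase H present with 1, Sen1-AID with 2 and h1D-h2D Sen1-AID with 2. Sen1 is a DNA-RNA helicase.

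Each library is a list of peaks with a score that the authors deposited. The scale of the score is not given, so it is used here only as a percentile within its own list, where 100 is the highest peak. The lowest score lies just above 50 in all 11 auxin libraries, and the read depth behind each list is unknown. No peak overlapped RNH1 (XIII 740266–741312), TOP1 (XV 313078–315387) or RAD52 (XIII 212515–213930) in any of the 11 libraries. RNH201 (XIV 490317–491240) carried a peak in the 2 libraries of h1D-h2D Sen1-AID alone. Peak lists hold no expression or protein level, so these loci do not check the genotypes.

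Rad52 peaks were fewer after Top1 depletion in cells without RNase H, and they covered less of the genome. The h1D-h2D libraries held 634 and 578 nuclear peaks. After Top1 depletion the numbers were 282 and 254. The groups did not overlap, with means of 606 ± 39.6 and 268 ± 19.8 peaks (SD, n = 2 each). The covered length was 1504 and 1101 kb in h1D-h2D against 679 and 511 kb in h1D-h2D Top1-AID. An exact permutation test of 2 libraries against 2 has 6 splits and cannot go below p = 0.333, the value that both comparisons gave. The 9 other auxin libraries held between 286 and 731 peaks, so both h1D-h2D Top1-AID libraries lay below all of them (exact two-sided permutation p = 0.0182 over 55 splits, the smallest possible). Covered length ran from 763 to 1904 kb in these 9 libraries (exact permutation p = 0.0545). These tests treat libraries of different strains as exchangeable. Median peak width did not separate the groups, at 2066 and 1505 bp in h1D-h2D and 1868 and 1400 bp in h1D-h2D Top1-AID (exact permutation p = 0.667). Whether depth or precipitation yield contributed to the difference in number was not tested.

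Most of the remaining peaks were a subset of those seen with Top1 present. Of the peaks in the h1D-h2D Top1-AID libraries, 94.3% and 95.3% overlapped a peak of an h1D-h2D library, whereas 45.3% and 50.9% of h1D-h2D peaks overlapped one of h1D-h2D Top1-AID. Merging the peaks of the 4 libraries gave 688 regions. A region is called kept when all 4 libraries had a peak there, lost when both h1D-h2D libraries and neither h1D-h2D Top1-AID library had one, and gained in the reverse case. There were 184 kept regions. Lost regions numbered 258, or 37.5% of all, and gained regions numbered 7, or 1.02%. The other 239 had a peak in some other combination of the libraries. The Jaccard index (bases covered in both libraries over bases covered in either) was 0.629 between the h1D-h2D libraries, 0.544 between those of h1D-h2D Top1-AID, and 0.227 to 0.391 between the groups.

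These counts depend on how many peaks each list holds. When each list was shortened to its 254 highest peaks, 402 regions remained, of which 120 were kept, 49 or 12.2% were lost and 40 or 9.95% were gained. The cut leaves h1D-h2D Top1-AID replicate 2 whole and among these 4 lists takes low-ranking peaks mainly from h1D-h2D, so a class with many low-ranking peaks there loses most by it. At equal length, 21 of the 49 lost regions overlapped a ribosomal protein gene and none of the 40 gained regions did. By contrast, 20 of the 40 gained regions overlapped a tRNA gene and 16 a listed Ty retrotransposon, against 5 and 1 of the lost regions. These counts are not separate, since several gained regions held both a tRNA gene and a listed Ty, such as those of YDR098C-B and YPL257W-B. Of all 402 regions, 107 overlapped a ribosomal protein gene, 132 a tRNA gene and 23 a listed Ty retrotransposon.

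Presence after Top1 depletion followed the rank a region had before it. Of the 534 regions found in both h1D-h2D libraries, 48.3% were lost and 34.5% were kept. Regions with a mean h1D-h2D percentile under 25 were kept in 4 of 86 cases. Between 25 and 50 this was 21 of 152, between 50 and 75 it was 63 of 165, and above 75 it was 96 of 131. Regions at the top of the h1D-h2D lists were therefore mostly kept, and those at the bottom mostly lost. The classes had unlike shares within a rank range. Between percentiles 50 and 75, 31 of 59 regions with a tRNA gene were kept and 13 were lost, whereas 7 of 35 regions with a ribosomal protein gene were kept and 19 were lost. Above percentile 75, all 12 regions that held a snoRNA or snRNA gene and neither of the other classes were kept. These shares describe regions of the same libraries and were not tested.

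**Figure D1:**
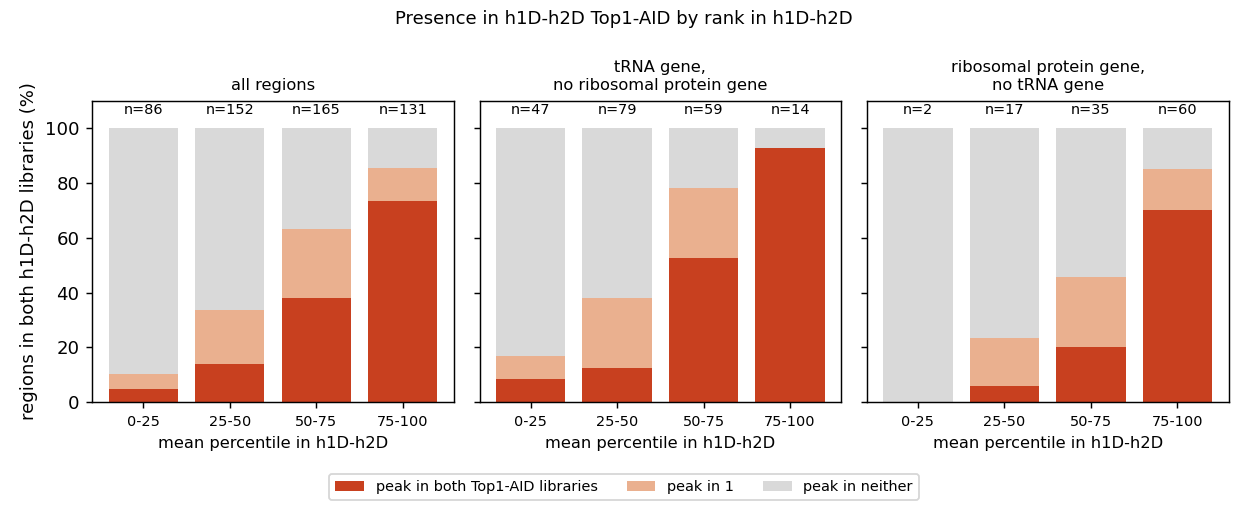
Share of the regions found in both h1D-h2D libraries that had a peak in both (dark), in 1 (light) or in neither (grey) h1D-h2D Top1-AID library, by mean within-list percentile in h1D-h2D and by locus class, with the number of regions above each bar. The kept part goes from 4 of 86 in the lowest range to 96 of 131 in the highest, and tRNA gene regions stand above ribosomal protein gene regions between percentiles 50 and 75.

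The other strains had most of the lost regions. Of the 258 lost regions, 231 had a peak in both WT libraries, and 202 in the Top1-AID library, in which RNase H was present. By contrast, 185 of them had none in either h1D-h2D Sen1-AID library. Of the 184 kept regions, Top1-AID had 177, WT had 178 in both libraries, and h1D-h2D Sen1-AID had 108 in both, with no peak at 48. Top1-AID is 1 library, so no test of Top1 depletion with RNase H present was possible.

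Ribosomal protein genes are among the most transcribed genes of a growing yeast cell, and most exist as pairs of near-identical copies. Of 137 such genes, 132 and 132 were overlapped by a peak in h1D-h2D and 72 and 60 in h1D-h2D Top1-AID. WT had 133 and 134, Top1-AID 132, Sen1-AID 132 and 97, and h1D-h2D Sen1-AID 58 and 58. Counted by gene, 53 were covered in all 4 libraries and 52 were lost. Among the 1815 genes of any kind touched by a peak in the 4 libraries, 33.9% were lost. That base includes genes not covered in both h1D-h2D libraries, which cannot be lost, whereas 131 ribosomal protein genes were covered in both. Of regions found in both, 36.7% of 120 with a ribosomal protein gene were lost and 45.8% kept. Over all 534 such regions, 48.3% were lost and 34.5% kept. The median h1D-h2D percentile was 76.2 for regions with a ribosomal protein gene and 54.6 over all 534. The large subunit had 29 genes kept and 29 lost of 76, and the small subunit 24 kept and 20 lost of 56. Of the 5 genes for the acidic stalk of the large subunit none was kept and 3 were lost.

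RPL8A (VIII 35255–36025) and RPL28 (VII 310967–311927), both of the large subunit, stayed near the top of the lists. RPL8A lay at percentiles 99.5 and 98.8 in h1D-h2D and 96.5 and 96.9 in h1D-h2D Top1-AID. RPL28 lay at 99.1 and 98.1 and then at 96.8 and 95.3. RPS13 was also kept, at 89.7 and 85.0 in h1D-h2D Top1-AID. The 4 lost genes with the highest ranks were RPL33B, RPL39, RPS22B and RPS25B. RPL33B (XV 778555–779405) lay under h1D-h2D peaks at 99.2 and 97.4, and RPL39 (X 75933–76474) under peaks at 97.8 and 92.0. In both cases the wide h1D-h2D peak also covered neighbours that were kept. These were the U3 snoRNA gene SNR17A beside RPL33B, with 90.4 and 95.7 in h1D-h2D Top1-AID, and RPS14B and RPS22A beside RPL39, with 69.1 and 73.2. RPS22B (XII 856442–857317), which holds the snoRNA gene SNR44, lost its whole region, which had stood at 95.7 and 92.9 in h1D-h2D.

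Copies of a pair were kept together, lost together or split. Of all 137 ribosomal protein genes 53 were kept and 52 lost, so unrelated genes would differ as well. Whether copies differed more or less than unrelated genes was not tested. Of 57 pairs, 9 had both copies kept, as for RPS14, and 10 had both lost, as for RPS1 and RPL17. In 12 pairs 1 copy was kept and the other lost, among them RPL8, RPL36 and RPS22. RPL36A was kept and RPL36B was lost. Reads from near-identical copies can be placed on either one, so the split between copies is uncertain.

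At covered ribosomal protein genes, peaks began nearer the gene start in both h1D-h2D Top1-AID libraries than in both h1D-h2D libraries. The median reach of peaks upstream of the gene start was 915.5 and 677.5 bp in h1D-h2D and 352 and 43 bp in h1D-h2D Top1-AID, a difference of -599 bp between group means. The median reach past the gene end was 739.5 and 668.5 bp against 682 and 585.5 bp, a difference of -70.2 bp. The upstream reach did not overlap between the groups and the downstream reach did (exact permutation p = 0.333, the smallest possible, and 0.667). Over the 53 genes covered in all 4 libraries, the upstream medians were 916 and 683 bp in h1D-h2D and 386 and 42 bp in h1D-h2D Top1-AID. The downstream medians were 858 and 734 bp against 710 and 592 bp. Neither measure overlapped between the groups over these genes, and the difference of means was -586 bp upstream and -145 bp downstream. A short reach was not particular to these libraries. Over all covered ribosomal protein genes, h1D-h2D Sen1-AID had upstream medians of -50.5 and -11 bp, and the Sen1-AID replicates differed, with 876 and 238 bp. WT had 982 and 785 bp and Top1-AID 846.5 bp. In 42 of the 53 genes both h1D-h2D Top1-AID values lay below both h1D-h2D values, and in 0 above. Over all 279 coding genes with 1 peak in each of the 4 libraries, the upstream reach was below in 57.3% and above in 4.3%, with medians of 880 and 603 bp against 405 and 108 bp. The downstream reach was below in 36 of the 53 ribosomal protein genes, and over all 279 genes it was below in 53.8% and above in 6.09%, with medians of 906 and 824 bp against 867 and 723 bp. A shorter upstream reach was therefore seen over coding genes as a whole as well.

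RPS7A and RPS16B show the difference in single genes, chosen here after their values were seen. The peak on RPS7A began 1021 and 903 bp upstream of the gene start in h1D-h2D, and at 23 and -267 bp in h1D-h2D Top1-AID, where a negative value lies inside the gene. At RPS16B it began 3266 and 2757 bp upstream and then at -135 and -121 bp. There the h1D-h2D peak also covered the neighbouring genes RPL13A and RPP1A on the upstream side, so its reach includes them. Another peak, at percentile 3.19, lay on these neighbours in h1D-h2D Top1-AID replicate 1. RPL7A moved little, from 1121 and 1045 bp to 956 and 794 bp upstream. Peaks on the 3′ end of the gene alone were found at 0 and 0 of the 53 genes in h1D-h2D and at 8 and 25 in h1D-h2D Top1-AID. Among all covered ribosomal protein genes, such peaks were at 13 of 72 and 28 of 60 in h1D-h2D Top1-AID, at 34 and 30 of 58 in h1D-h2D Sen1-AID, and at 0 of 132 and 23 of 97 in Sen1-AID. In h1D-h2D Top1-AID the higher count came from the library with narrower peaks, replicate 2, and the part of peak width in it was not tested. For snoRNA and snRNA genes the upstream reach was 860 and 695.5 bp in h1D-h2D and 634 and 526 bp in h1D-h2D Top1-AID. At tRNA genes it was 589 and 518 bp against 546.5 and 490 bp, which overlap.

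**Figure D2:**
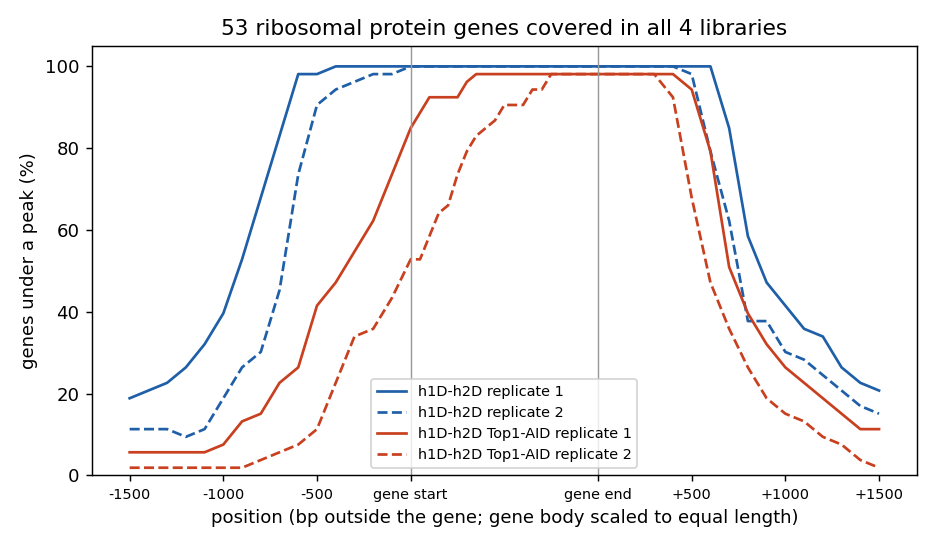
Percent of the 53 ribosomal protein genes covered in all 4 libraries that lay under a peak at each position, with 1500 bp on either side in bp and the gene body scaled to equal length. Solid lines are replicate 1 and dashed lines replicate 2; the h1D-h2D Top1-AID lines (red) fall below the h1D-h2D lines (blue) upstream of the gene start, where median reach was 386 and 42 bp against 916 and 683 bp, and lie closer to them past the gene end.

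A like asymmetry was seen across gaps between neighbouring coding genes. A divergent gap lies between 2 gene starts and a convergent gap between 2 gene ends. Peaks covered the midpoint of 265 and 186 divergent gaps in h1D-h2D and of 58 and 49 in h1D-h2D Top1-AID. For convergent gaps the numbers were 232 and 191 against 128 and 92. The ratio of divergent to convergent gaps was 1.14 and 0.974 in h1D-h2D, and 0.453 and 0.533 in h1D-h2D Top1-AID, with no overlap. It was 1.12 and 1.06 in WT, 1.03 in Top1-AID, 1.13 and 0.860 in Sen1-AID and 0.313 and 0.480 in h1D-h2D Sen1-AID. Against all 9 other auxin libraries the difference did not pass the threshold (exact permutation p = 0.0909, adjusted 0.2 over 3 measures). Of 180 divergent gaps covered in both h1D-h2D libraries, 65.0% were lost and 15.0% kept, and of 182 convergent gaps 41.2% were lost and 39.0% kept, beside 53.4% lost over all 704 gaps covered in both. The median divergent gap measured 511 bp and the median convergent gap 231 bp. With every peak set to 1 kb around its midpoint the difference between the groups was -0.856, against -0.565 with the peaks as deposited.

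**Figure D3:**
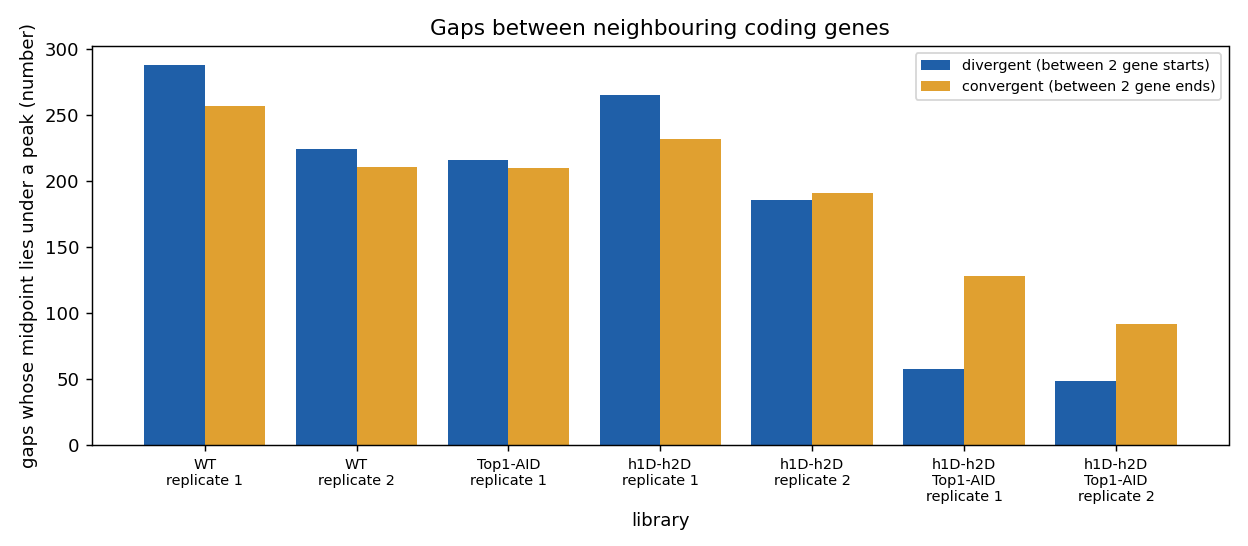
Number of divergent (blue) and convergent (yellow) gaps between neighbouring coding genes whose midpoint lay under a peak, in WT, Top1-AID, h1D-h2D and h1D-h2D Top1-AID libraries. Both h1D-h2D Top1-AID libraries, with 58 and 49 divergent gaps, have fewer divergent than convergent gaps, at 128 and 92.

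Transfer RNA genes, which RNA polymerase III transcribes, were covered less often, and their share of all peaks overlapped between the groups. Of 275 nuclear tRNA genes, 224 and 232 were covered in h1D-h2D and 100 and 104 in h1D-h2D Top1-AID. WT had 229 and 248, Top1-AID 171, Sen1-AID 230 and 222, and h1D-h2D Sen1-AID 101 and 122. Of these genes 68 were kept, 109 were lost and 4 were gained, beside 1.05% gained among all 1815 genes touched. Of regions found in both h1D-h2D libraries, 50.2% of 205 with a tRNA gene were lost and 30.7% kept. This is near the 48.3% lost and 34.5% kept over all 534 such regions. YNCE0005W (V 86604–86685), next to the translation factor gene HYP2, was kept at 92.3 and 91.7 in h1D-h2D and 93.6 and 92.5 in h1D-h2D Top1-AID. YNCD0015C (IV 668007–668080) was the highest tRNA gene to lose its whole region, from percentiles of 84.5 and 86.2. As shares of the full lists, tRNA genes had 33.6% and 38.4% of peaks against 32.6% and 37.8%, and ribosomal protein genes 19.1% and 20.9% against 23.4% and 22.8%. With each list cut to 254 peaks, 51 and 71 lay on tRNA genes in h1D-h2D and 84 and 96 in h1D-h2D Top1-AID. For ribosomal protein genes these numbers were 99 and 84 against 61 and 58. Peaks on tRNA genes ranked low in h1D-h2D, where regions found in both libraries had a median percentile of 44.9 against 76.2 for ribosomal protein genes, so the cut removes them from the h1D-h2D lists first.

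Small nucleolar and small nuclear RNA genes, whose products guide rRNA modification and splicing, had high-ranking regions in h1D-h2D, with a median percentile of 79.3 against 54.6 over all regions found in both libraries. Of 82 genes, 75 and 72 were covered in h1D-h2D and 52 and 47 in h1D-h2D Top1-AID, with 47 kept and 21 lost. Among all 1815 genes touched, including those not covered in both h1D-h2D libraries, 33.9% were lost. Of regions found in both h1D-h2D libraries, 30.4% of 56 with such a gene were lost, against 48.3% over all 534. SNR17A, SNR128, SNR190 and LSR1, the U2 gene, were the kept members with the highest h1D-h2D percentiles. SNR128 and SNR190 shared peaks at 97.9 and 97.6 in h1D-h2D and 90.8 and 92.1 in h1D-h2D Top1-AID. LSR1 lay at 98.7 and 96.4 and then at 47.9 and 72.4. The snoRNA cluster from SNR72 to SNR78 on chromosome XIII, named after its values were seen, lay at 96.4 and 98.6 and then at 95.4 and 92.9. Of 10 other polymerase III genes, 4 and 2 were covered in h1D-h2D and 2 and 3 in h1D-h2D Top1-AID. RPR1, the RNase P RNA gene, and SNR52 were kept, and 5S rRNA gene copies had peaks in h1D-h2D replicate 1 alone of the 4 libraries. SCR1 had a peak in h1D-h2D Top1-AID replicate 2 alone of the 4, at 4.72. In the ribosomal DNA list of 14 annotated genes, 2 and 0 were covered in h1D-h2D and 0 and 0 in h1D-h2D Top1-AID.

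Glycolytic and fermentation genes kept their strongest sites. Of 19 genes, 15 and 15 were covered in h1D-h2D and 10 and 10 in h1D-h2D Top1-AID. ADH1, TDH3, ENO2 and PDC1, which act in the lower part of glycolysis and in fermentation, kept percentiles above 96 in all 4 libraries. ADH1 (XV 159548–160594) lay at 100 and 99.7 in h1D-h2D and 99.6 and 98.8 in h1D-h2D Top1-AID. The 5 lost were HXK2, PGI1, PFK1, PFK2 and ENO1. Of 15 regions with a gene of this list found in both h1D-h2D libraries, 33.3% were lost, against 48.3% over all 534 such regions. These 15 had a median h1D-h2D percentile of 94.7, however, and above percentile 75 the lost share was 14.5% of 131 regions of any class. HXK2, the hexokinase gene, had stood at 82.5 and 73.7, and ENO1, the paralog of ENO2, at 11.6 and 22.0. Of 9 translation elongation genes, 8 and 8 were covered in h1D-h2D and 7 and 7 in h1D-h2D Top1-AID, and EFT1 was lost. TEF1 (XVI 700594–701970), which encodes elongation factor 1-alpha, lay at 99.8 and 99.1 and then at 98.6 and 98.0. YEF3 lay at 98.1 and 96.7 and then at 89.4 and 79.5.

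Histone genes were covered at 8 and 8 of 10 in h1D-h2D and at 3 and 3 in h1D-h2D Top1-AID. WT had 8 and 8, Top1-AID 9, Sen1-AID 8 and 7, and h1D-h2D Sen1-AID 0 and 2. HTA1 and HTB1 (IV 914317–915928), a divergent pair for H2A and H2B, lay under h1D-h2D peaks at 91.3 and 84.3 and were lost, as were HHT1 and HHF1. The pair HHT2 and HHF2, for H3 and H4, dropped furthest in rank among kept regions whose groups did not overlap, from 98.4 and 96.0 to 25.2 and 9.45. Its peak shortened from 3121 and 3018 bp to 1359 and 1002 bp and then covered HHT2 without HHF2. HTA2 and HTB2 were kept, from 78.5 and 85.3 to 27.3 and 57.1. Of 4 regions with a histone gene found in both h1D-h2D libraries, 2 were lost, against 48.3% over all 534 such regions. Their median h1D-h2D percentile was 84.9, and above percentile 75 the lost share was 14.5% of 131 regions of any class. All 4 core histone pairs are divergent gene pairs.

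Of 10 Hsp70 and Hsp90 chaperone genes, 8 and 8 were covered in h1D-h2D and 4 and 3 in h1D-h2D Top1-AID. SSA2 was kept, from 96.2 and 96.9 to 89.0 and 64.6, and SSB2, KAR2, SSC1 and HSP82 were lost. Of 14 cell wall mannoprotein genes, 8 and 7 were covered in h1D-h2D and 6 and 4 in h1D-h2D Top1-AID. SED1 lay higher than before, from 83.1 and 88.1 to 97.2 and 97.6, and CCW12 was lost from 83.9 and 84.9. Of 7 hexose transporter genes, 4 and 3 were covered against 2 and 2, with HXT1 and HXT3 lost. The flocculin genes FLO1 and FLO5 had peaks in both h1D-h2D libraries and in neither h1D-h2D Top1-AID library. Of 10 genes for the Nrd1-Nab3-Sen1 termination factors and their known targets, 4 and 4 were covered in h1D-h2D and 0 and 0 in h1D-h2D Top1-AID, with NRD1, URA2 and HRP1 lost. NRD1 had stood at 82.2 and 63.7. Of regions found in both h1D-h2D libraries, 4 of 8 with a chaperone gene, 2 of 7 with a cell wall gene and 2 of 4 with a hexose transporter gene were lost. For flocculin genes it was 2 of 2 and for Nrd1-Nab3-Sen1 genes 3 of 3. Over all 534 such regions 48.3% were lost, and 89.5% of those under percentile 25. The median h1D-h2D percentile was 81.6 for chaperone, 73.0 for cell wall, 38.2 for hexose transporter, 16.2 for flocculin and 34.4 for Nrd1-Nab3-Sen1 regions. Above percentile 75 the lost share was 14.5% of 131 regions of any class.

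Each of these counts gave exact permutation p = 0.333 at best in the test of 2 libraries against 2. Against the 9 other auxin libraries none of the 17 lists passed the adjusted threshold, and 2 lists, or 11.8%, lay below all 9 in both h1D-h2D Top1-AID libraries. These were the Nrd1-Nab3-Sen1 genes and the long coding genes, with unadjusted exact permutation p = 0.0182 and 0.0364 and an adjusted p of 0.206 for each. The p of tRNA genes was likewise 0.0364, or 0.206 adjusted. The h1D-h2D Sen1-AID libraries had low counts as well. An alternative without them, chosen with those counts known and so no independent test, had h1D-h2D Top1-AID below the remaining 7 libraries in 11 of 17 lists, each with exact p = 0.0278 over 36 splits, the smallest possible, and adjusted p = 0.0429. These 11 were ribosomal protein, tRNA, snoRNA and snRNA, glycolytic, elongation, histone, Hsp70 and Hsp90, Nrd1-Nab3-Sen1, Y prime and long coding genes and chromosome ends. No list passed in the other direction. With each list cut to 254 peaks, the difference in members covered between h1D-h2D Top1-AID and h1D-h2D was -4.5 for snoRNA and snRNA, -2.5 for glycolytic, -4 for histone, -3.5 for Hsp70 and Hsp90 and -2 for cell wall genes, and -6 for chromosome ends. It was 0 for elongation genes and turned to 1 for hexose transporter genes. For tRNA genes, which are among the 11 lists above, and for other polymerase III genes it turned positive as well.

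**Figure D4:**
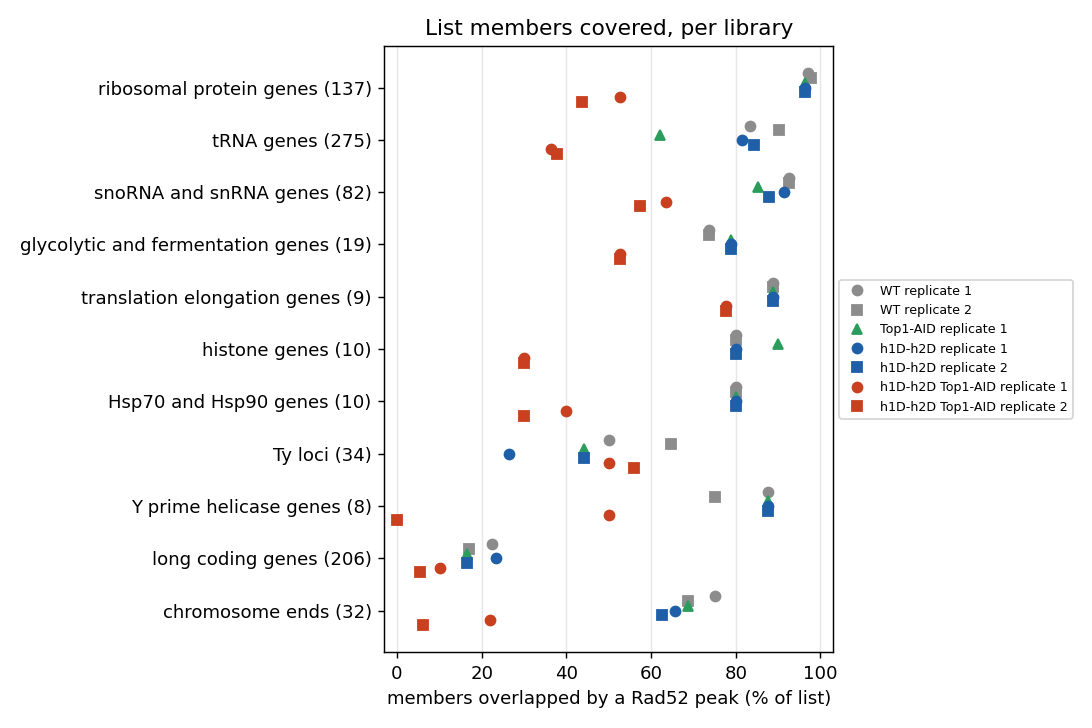
Percent of the members of 11 locus lists that a Rad52 peak overlapped, with the number of members in parentheses, for WT (grey), Top1-AID (green), h1D-h2D (blue) and h1D-h2D Top1-AID (red) libraries, where circles are replicate 1 and squares replicate 2. The red points lie left of the others for the lists shown, except Ty loci, where 17 and 19 of 34 were covered against 9 and 15 in h1D-h2D and 17 and 22 in WT.

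Ty retrotransposons went the other way from the other lists. Ty loci were listed by name, as coding loci of at least 4 kb whose systematic name ends in a hyphen and a letter. Ty genes named otherwise are not in this list. Of 34 Ty loci, 9 and 15 were covered in h1D-h2D and 17 and 19 in h1D-h2D Top1-AID, so the groups did not overlap (exact permutation p = 0.333, the smallest possible). WT had 17 and 22, Top1-AID 15, Sen1-AID 16 and 15, and h1D-h2D Sen1-AID 9 and 10. In number, then, h1D-h2D Top1-AID lay within the range of WT. Of the h1D-h2D libraries replicate 1 was low, and replicate 2 equalled Top1-AID. As shares of the full lists, Ty loci had 1.74% and 2.94% of peaks in h1D-h2D and 7.09% and 8.27% in h1D-h2D Top1-AID. Among the 254 highest peaks of each library, 1 and 2 lay on Ty loci in h1D-h2D and 18 and 21 in h1D-h2D Top1-AID. The 9 other auxin libraries had 1 to 14, the highest being 12 and 14 in h1D-h2D Sen1-AID (exact permutation p = 0.0182, the smallest possible, adjusted 0.309 over 17 lists). The median percentile of peaks on Ty was 36.8 and 17.6 in h1D-h2D and 73.2 and 55.5 in h1D-h2D Top1-AID. Their median width was 2748 and 3815 bp against 5450.5 and 6187 bp. Reads from repeated Ty copies can be placed on any copy, and the insertions of these strains may differ from the reference, so single loci are uncertain.

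Of the 7 gained regions, 6 lay on Ty loci of the list. YDR365W-B (IV 1206997–1212265) carried peaks at 97.9 and 51.6 in h1D-h2D Top1-AID. YDR210C-D lay at 63.8 and 68.1, YOL103W-B at 33.3 and 31.9 and YPR137C-B at 36.5 and 24.8. At YNL284C-B, with 92.9 and 79.9, and YNL054W-B, with 84.0 and 86.2, h1D-h2D replicate 2 had a peak elsewhere on the same element. The last gained region, XII 650805–658472 at 23.8 and 68.9, covered HAP1, a haem-responsive activator gene that carries a Ty insertion in strain S288C. WT had a peak in both libraries at 3 of the 7 regions and in neither at 2. Among kept regions, YPL257W-B went from 4.42 and 17.6 to 74.8 and 59.8, and YDR098C-B from 51.3 and 16.3 to 87.6 and 61.4 while its peak widened from 5095 and 4614 bp to 6918 and 6820 bp. YDR261W-B went the other way, from 49.7 and 41.9 to 14.2 and 13.8. YLR157C-B, which lies among 5S rRNA gene copies on chromosome XII, and YOR192C-B were lost.

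Peaks were rarer at chromosome ends. Of the 32 ends, taken as the outer 20 kb, 21 and 20 held a peak in h1D-h2D and 7 and 2 in h1D-h2D Top1-AID, where WT had 24 and 22 and Top1-AID 22. Sen1-AID had 23 and 11 and h1D-h2D Sen1-AID 3 and 4, so low counts were not particular to h1D-h2D Top1-AID. Within these 20 kb, 21 of 29 regions present in both h1D-h2D libraries were lost and 1 was kept. Between 20 and 100 kb from an end 51.0% of 102 regions were lost, and further inside 45.9% of 403. YIL177C on chromosome IX and YJL225C on chromosome X, at the very ends, had stood at 90.2 and 92.6 and at 87.4 and 89.8 and were lost. The Y prime helicase genes, which lie in repeated elements beside the telomeres, were covered at 7 and 7 of 8 in h1D-h2D and at 4 and 0 in h1D-h2D Top1-AID. In h1D-h2D Sen1-AID the numbers were 0 and 0. The 2 h1D-h2D Top1-AID libraries differ here, and reads from these repeats too can be placed on any copy. Long coding genes of at least 4 kb outside the Ty list were covered at 48 and 34 of 206 in h1D-h2D and 21 and 11 in h1D-h2D Top1-AID. Any Ty gene without the hyphen suffix of that list is counted among them.

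Within the kept regions, rank and width shifted unevenly. Both h1D-h2D Top1-AID percentiles lay below both h1D-h2D percentiles in 123 of 184 kept regions, or 66.8%, and above them in 11, or 5.98%. A kept region is pushed down the percentile scale when the weaker peaks of its list disappear, so the 184 regions were also ranked among themselves. The median change was then -0.815 points over all of them, -11.7 points over the 55 with a ribosomal protein gene and 2.72 points over the 63 with a tRNA gene. Peaks were narrower in both h1D-h2D Top1-AID libraries in 102 kept regions, or 55.4%, and wider in 6, or 3.26%. Of the 55 regions with a ribosomal protein gene, 44 were narrower and 0 wider. The median log2 ratio of covered length was -0.65 there, -0.17 at tRNA genes and -0.29 over all kept regions.

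The highest region in h1D-h2D Top1-AID was the CUP1 locus (VIII 211885–216594), tandem copies of the metallothionein genes CUP1-1 and CUP1-2. It lay at 91.8 and 47.4 in h1D-h2D and at 100 and 99.6 in h1D-h2D Top1-AID. The h1D-h2D replicates differ widely there, and reads from the copies cannot be separated. ILV5 with TAL1 (XII 835867–839975), genes of branched-chain amino acid synthesis and of the pentose phosphate pathway, lay at 70.7 and 36.5 and then at 98.2 and 94.9. The tRNA gene YNCK0014W beside IXR1 went from 8.04 and 11.9 to 46.8 and 78.0. After HHT2, the kept regions with the next largest drops in percentile were ASC1 with SNR24, from 97.5 and 94.6 to 15.6 and 28.7, and RPL35A, from 89.1 and 82.2 to 22.3 and 1.97. RPL40A and SNR19, the U1 snRNA gene, completed the 5.

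In some kept regions the widths of the groups did not overlap. The region of RPL29 and QCR6 shortened from 4786 and 3211 bp to 1114 and 1056 bp, and RPL29 was covered in neither h1D-h2D Top1-AID library. GLN1 with VMA13 shortened from 6485 and 6115 bp to 2257 and 2103 bp while its percentile went from 32.5 and 43.1 to 57.8 and 66.5. The region of RPS25B and the snoRNA genes SNR61, SNR55 and SNR57 shortened from 4457 and 4350 bp to 1689 and 1380 bp. The remaining peaks covered the snoRNA genes and not RPS25B. The widest gain was at DNM1 and YLR001C, from 2914 and 2259 bp to 6379 and 3715 bp, whose percentiles of 76.0 and 93.8 in h1D-h2D stood against 7.80 and 67.7. Lost regions of high rank outside those already named included AGE1 with SNA2 and RBA50 (IV 1488519–1491107, from 93.7 and 83.1), RPS1B (from 94.5 and 81.7) and RPS29A with SNR34 (from 88.5 and 80.5). Each had a peak in both WT libraries and in Top1-AID.

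**Figure D5:**
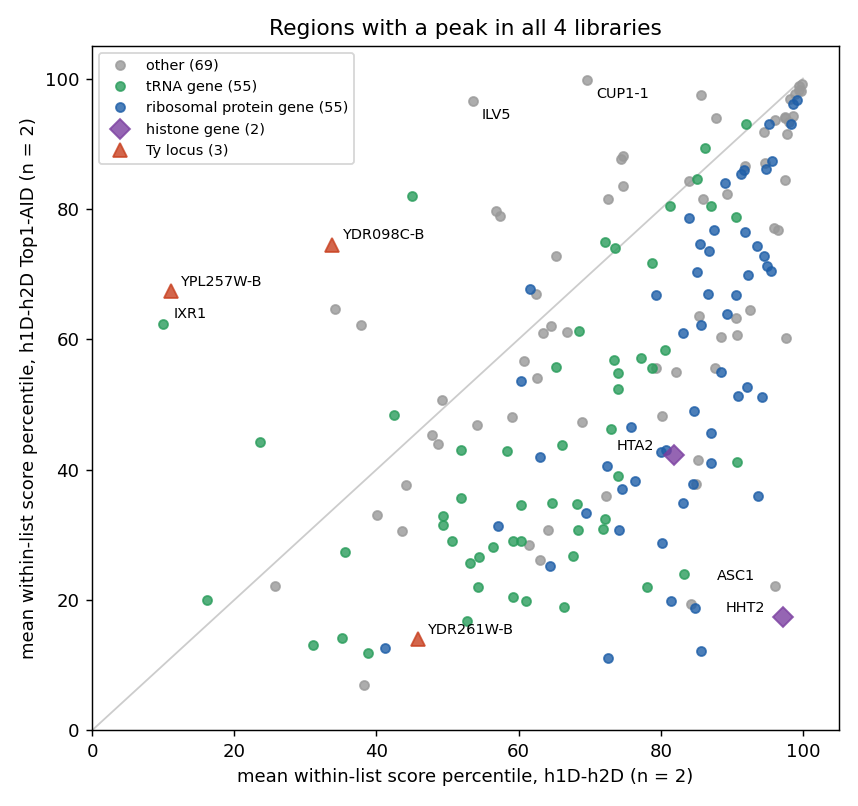
Mean within-list score percentile of each of the 184 kept regions in h1D-h2D (horizontal) and h1D-h2D Top1-AID (vertical), n = 2 libraries each, coloured by locus class, with the line of equal percentile. Most points lie below the line; CUP1-1, ILV5, IXR1 and the Ty loci YPL257W-B and YDR098C-B lie above it, and the histone genes HHT2 and HTA2 and ASC1 lie far below.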

How the data were processed

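Rad52 immunoprecipitations were sequenced, and the deposited files are peak lists, 1 per library, with a score per peak in the authors' own unit and no header. Per the submitters' processing notes, Bowtie2, MACS2 and the sacCer3 build were used, with no versions. Thresholds, any control library and depth are not given in the sources used here, so no interval on depth can be given. Positions are 1-based. Genes came from the RefSeq table of assembly R64, which is sacCer3, with 6431 entries, and strand came from systematic names. Of 86 genes listed by name 84 were found. Gene lists, regions and members were chosen with earlier results of these data known. RPP1, an RNase P gene, was left out of the ribosomal protein list despite its prefix.

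Merged regions join nuclear peaks of the 4 libraries that share at least 1 bp. A gene was covered when a peak overlapped it by 1 bp. Scores were turned into percentiles within each list. Group means of library values were set against each other in exact, two-sided permutation tests, with Benjamini-Hochberg adjustment over the lists or measures and a threshold of 0.05. Counts of regions carry no test. Scripts ran in Python 3.11.15 with numpy 2.4.6 and pandas 2.3.3 and were checked on simulated lists. Genes named are the edited loci, gained regions, the 10 highest lost and kept regions, the 5 largest changes of rank or width each way, and up to 4 members a list. Other list members named were chosen after their values were seen. A few genes under this rule are not reported here. The alternatives were a stricter score limit, equal list lengths, repeats and ends left out, joined peaks, 5 kb bins, at least 25% of a region covered, peak midpoints within 500 bp and each library left out. Gaps, gene ends, regions by class at equal length and peaks of 1 kb were added after seeing the data. Gal-HO libraries and mitochondrial peaks were not used.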

Additional observations from a re-analysis of the deposited data

Results flagged for a closer look

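For 6 measures every comparison of Top1 depletion in the absence of RNase H went one way and the comparison with RNase H present, Top1-AID against WT, went the opposite way. The second rests on 1 Top1-AID library, so none of these differences was tested. The 6 measures were picked for their opposite direction, out of measures on 17 lists, and some of the opposite values are small.

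Ty loci covered by a peak differed by 6 members between h1D-h2D Top1-AID and h1D-h2D, and by -4.5 between Top1-AID and WT. As a percent of peaks, Ty loci differed by 5.34 points without RNase H and by -0.385 points with it. The peaks on Ty loci were 19 of 551 in Top1-AID and 23 of 666 and 26 of 617 in WT. Glycolytic and fermentation genes covered differed by -5 and by 1 member, with 15 in Top1-AID and 14 and 14 in WT. Histone genes covered differed by -5 and by 1 member, with 9 in Top1-AID and 8 and 8 in WT. The percent of peaks on Y prime helicase genes differed by -0.870 and by 0.396 points. The percent of peaks on chromosome ends differed by -3.45 and by 0.750 points.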

How the results depend on the processing

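Peak number, covered length, upstream reach at ribosomal protein genes and the ratio of divergent to convergent gaps kept their direction under every alternative run for them, except peak number at equal length, where the cut sets the difference to 0. Of 193 alternative values over 47 results, 159 counted as unchanged, 14 moved and 20 turned direction. Limits of size applied only to region counts and to rank and width at kept regions. For nearly all other measures unchanged means only that the sign did not turn, whatever the size. Leaving out 1 library in turn gave peak number differences of -366 to -310, covered length of -909 to -506 kb, median width of -432 to 129 bp, lost regions of 284 to 347, gained 12 to 19, kept 188 to 239, percentile change of -19.5 to -14.8, width change of -0.43 to -0.14 (log2), Ty members of 3 to 9, ribosomal protein members of -72 to -60, their share of 2.19 to 4.03 points, tRNA members of -130 to -122, their share of -3.38 to 1.79 points, upstream reach of -754 to -444 bp, downstream reach of -118 to -22 bp, the gap ratio of -0.649 to -0.481 and starts per end of -0.257 to -0.174.

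Lost regions numbered 49 at equal length. Gained regions numbered 4 at the stricter limit (the pooled median score), 40 at equal length, 1 without repeats and ends and 11 in 5 kb bins. Kept regions numbered 41 at the stricter limit and 120 at equal length. The percentile change was -20.9, -1.48, -17.5, -18.1, -18.0 and -0.815 at the stricter limit, at equal length, without repeats, with joined peaks, with 25% covered and ranked among kept regions. Turned directions at the stricter limit were median width (138 bp), downstream reach (142.5 bp) and the shares of ribosomal protein genes (-8.37 points), other polymerase III (-0.0971), histone (-1.16), hexose transporter (-0.695) and Y prime genes (0.384). At equal length they were the shares of ribosomal protein (-12.6), tRNA (11.4), snoRNA (-1.38), glycolytic (-0.984), histone (-0.591) and cell wall genes (-0.787), and members of tRNA (30), hexose transporter (1) and other polymerase III genes (0.5). Without repeats they were members of other polymerase III genes (0.5) and shares of chaperone (0.00426) and long genes (0.0448), and by midpoints the histone share (-0.0905). Lists past the threshold went from 0 to 11 without h1D-h2D Sen1-AID. The cause of these changes was not tested, except that the shortened lists hold fewer peaks.

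Replicate numbers are shared by the groups, but nothing says that they pair libraries, and deviations of same-numbered libraries correlated at 0.104 for covered length and 0.190 for percentile over kept regions. With the replicate block the gap ratio differed by -0.565 and peak number by -338, as without it, and the smallest p of 2 pairs is 0.5. With 2 libraries a group and unknown depth, absence of a peak is not absence of signal.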
